A study of Homo sapiens with 8 samples.

Results

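The mRNAs of nucleoporins, importins and exportins were examined for binding by IGF2BP1, an RNA-binding protein that is largely silent in adult tissue, is expressed again in many tumors, and protects or directs the mRNAs it binds. The members are the protein-coding genes of GENCODE release 44 whose symbol is NUP, IPO, XPO, TNPO, KPNA or KPNB followed by a number, together with RANBP2, TPR, NDC1, POM121 and CSE1L. This gave 48 of 20046 protein-coding genes. They held 177 of the 22311 peaks listed for DMSO and 183 of the 22123 peaks listed for AVJ16, a small molecule that inhibits IGF2BP1. The cells were H1299, a human non-small cell lung carcinoma line, exposed for 24 h to 1.5 µM AVJ16 or to 0.01% DMSO, the solvent, and both groups received UV light at 254 nm and 400 mJ/cm2 to crosslink protein to RNA. In eCLIP, RNA pulled down with an antibody (IP) is sequenced next to a size-matched input (SMInput) made without the antibody, and here 2 IP and 2 SMInput libraries were made for each treatment, 8 in all. The authors combined the replicates into 1 peak list per treatment, so no value below has an error between replicates, no difference could be tested, and library depth is unknown. A level is the log2 fold enrichment of IP over SMInput in a peak, and a difference is AVJ16 minus DMSO on that log2 scale. Every listed peak reached a level of 3, so a site below it is missing from a list whatever its level. Peak lists do not measure marker genes, so the cell line could not be checked against its label. RNA levels are not in the lists either, and a member without a peak is only a member with no site past the thresholds.

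The nuclear pore complex is the channel through which protein and RNA pass between nucleus and cytoplasm. Its scaffold is built of an outer Y complex and an inner ring, transmembrane nucleoporins anchor it, and nucleoporins rich in phenylalanine-glycine repeats fill the channel. Importin alpha proteins (KPNA genes) hold cargo with a classical nuclear localization signal and bind KPNB1, the importin beta that carries them through the pore. Other importin beta relatives carry cargo in without an adaptor, and exportins carry cargo out, with the small GTPase RAN setting the direction.

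Stretches of the peaks that carry the strongest values are shown first, read from hg38 as RNA, 5′ to 3′, at most 30 bases from the middle of each peak. The first 6 belong to the members with the highest level in either list. The last 2 were added after their values were seen, because they are the site with the largest positive difference and the only intronic site. Capitals mark CAU, GGAC and ACACAC, short letter runs linked in general to IGF2BP1 or to m6A-modified RNA.
NUP54, DMSO, chr4:76114944-76114973, minus strand: aacuauaauuacuuggcuguuggagauuug
KPNA3, DMSO, chr13:49701513-49701542, minus strand: ucccuggugccacaggcugacaacugcagu
NUP210, AVJ16, chr3:13316938-13316967, minus strand: GGACuuggcuuaggcccugcugGGACAUcc
NDC1 exon 8, AVJ16, chr1:53807685-53807714, minus strand: ucuuucuccugacgacuugguaugucuCAU
CSE1L, DMSO, chr20:49085302-49085328, plus strand: gcaccguuuguugagauucugcuaaca
IPO5, AVJ16, chr13:98022354-98022383, plus strand: uuucccagaaggcuuauacagugacucagu
NDC1 exon 17, AVJ16, chr1:53772329-53772352, minus strand: uacuaCAUuuggugaaCAUcugaa
TNPO2 intron, DMSO, chr19:12703597-12703613, minus strand: guacugucugauggggc
The stretches from NUP54, KPNA3, CSE1L, IPO5 and TNPO2 held none of these letter runs. In NUP210 a GGAC and a CAU overlap at 1 base. Over windows of 51 nt around every peak of a member, on the RNA strand only, CAU was present in 59.3% with DMSO and 63.4% with AVJ16, beside 64.3% and 64.5% of the windows of all peaks. GGAC was present in 11.3% and 8.74%, beside 12.2% and 12.5% of all windows. UGGAC, which contains GGAC, was present in 5.08% and 5.46%, beside 4.41% and 4.84%, and ACACAC in 1.13% and 1.64%, beside 1.68% and 1.92%. Each of these shares had a 95% Wilson interval, which covers counting error only, that included the share over all peaks. Within the peaks themselves, without widening, 3 shares lay below the share over all peaks by more than their intervals, namely CAU with DMSO (59.3%, 52.0 to 66.3%, beside 69.5%), CAU with AVJ16 (56.8%, 49.6 to 63.8%, beside 66.8%) and GGAC with AVJ16 (8.20%, 5.03 to 13.1%, beside 15.4%). Member peaks were shorter, with medians of 54 nt and 44 nt beside 67 nt and 60 nt over all peaks, and the part of length in these shares was not tested.

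A larger share of these genes held a peak than of protein-coding genes in general. With DMSO, 29 of the 48 members had at least 1 peak (60.4%, 95% Wilson interval 46.3 to 73.0%), beside 25.8% of all protein-coding genes. With AVJ16, 28 members had a peak (58.3%, 44.3 to 71.2%), beside 23.2%. Both lists held 24 members, which is 82.8% of those bound with DMSO, beside 79.1% of all DMSO-bound genes. The members are long, and so are bound genes in general. The 33 members with a peak in either list had a median mRNA of 5689 nt and a median coding sequence of 3126 nt, and the 15 without a peak had 3611 nt and 1971 nt. Over all genes the medians were 4142 nt and 1464 nt with a peak and 2496 nt and 1215 nt without. The part of length in the share of bound members was not tested.

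The 15 members without a peak came from nearly all parts of the machinery. They were NUP107, NUP37, NUP43 and NUP85 of the Y complex, NUP35 and NUP93 of the inner ring, NUP62 of the central channel, TPR of the nuclear basket, NUP42 and NUP88 of the cytoplasmic side, the importin alpha genes KPNA5 and KPNA7, and KPNB1, IPO4 and TNPO3 of the importin beta family. All 3 transmembrane nucleoporins and all 5 exportins among the members had a peak in at least 1 list. KPNB1, the partner of every bound importin alpha, had none in either.

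Most peaks lay in 7 of the mRNAs. No matching share over all protein-coding genes is given, so this is not shown to be particular to the members. NDC1, CSE1L, NUP155, NUP153, KPNA6, NUP210 and POM121 each held at least 10 peaks in both lists, and together 104 of 177 with DMSO (58.8%) and 113 of 183 with AVJ16 (61.7%). Joining peaks that touch left 138 DMSO sites and 130 AVJ16 sites. The median level was 3.44 with DMSO and 3.41 with AVJ16, lower than the 3.63 and 3.61 of all peaks. The highest was 6.53 with DMSO, in NUP54, and 5.09 with AVJ16, in NUP210. Only 9 of the 22311 DMSO peaks had a higher level than the one in NUP54.

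**Figure D1:**
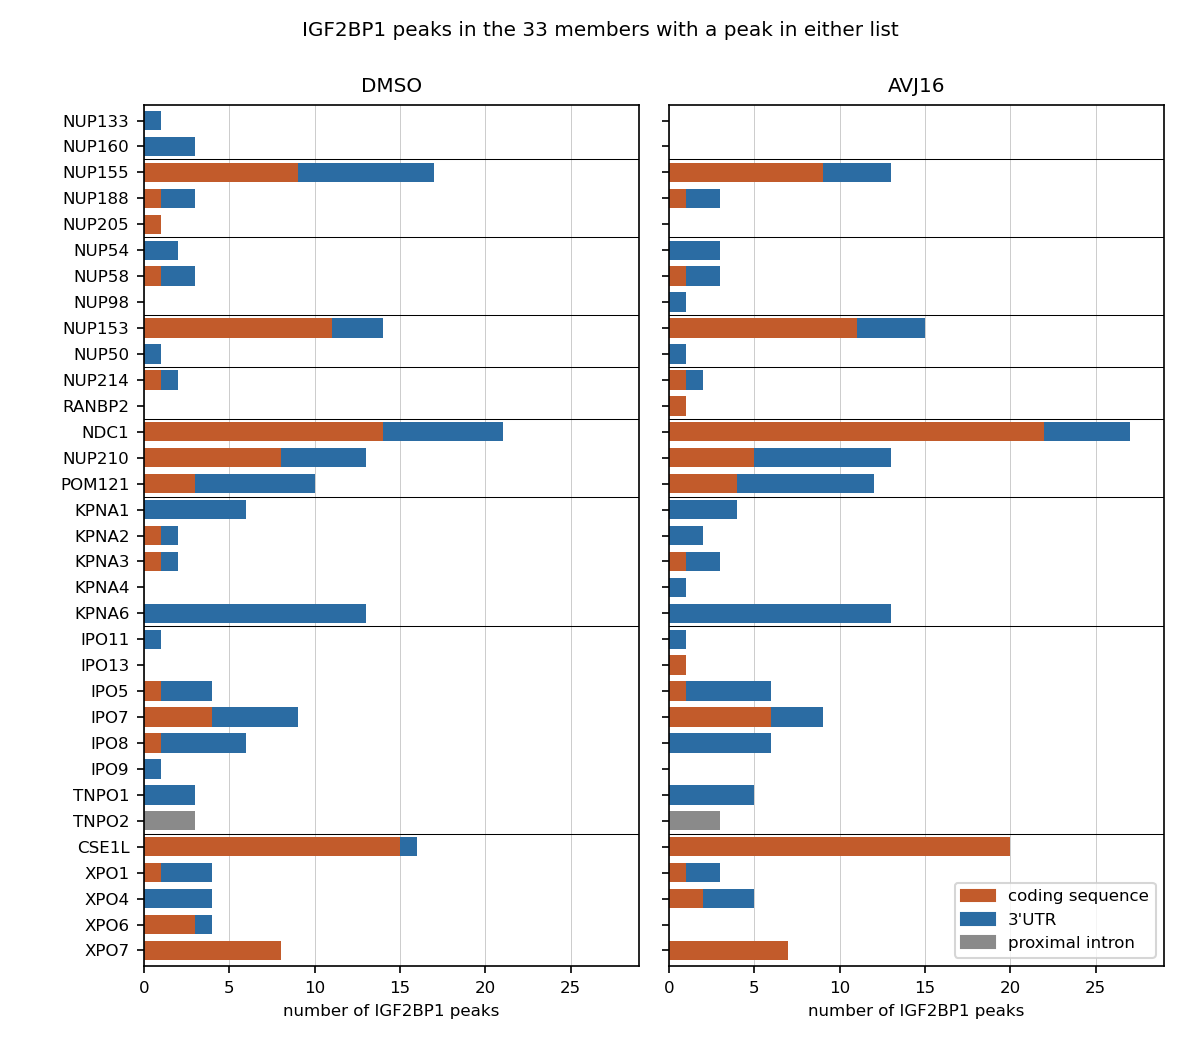
Number of IGF2BP1 peaks in each of the 33 members with a peak, with DMSO on the left and AVJ16 on the right, stacked by region, with lines between groups of members by role. NDC1 had the most peaks in both lists (21 and 27), the peaks of importin alpha genes lay almost wholly in the 3′UTR, and all peaks of XPO7 lay in coding sequence.

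The members stood apart in where the peaks lay. With DMSO, 84 of 177 peaks touched coding sequence (47.5%, 40.2 to 54.8%) and 90 lay in 3′UTRs (50.8%, 43.5 to 58.1%), whereas over all protein-coding genes 17.7% of peaks were in coding sequence and 75.8% in 3′UTRs. With AVJ16 the counts were 94 (51.4%, 44.2 to 58.5%) and 86 (47.0%, 39.9 to 54.2%), beside 20.7% and 76.2%. No member had a peak in a 5′UTR or a distal intron. Members with a peak had a median coding sequence of 3126 nt and a median 3′UTR of 1872 nt. Over all genes with a peak these medians were 1464 nt and 1963 nt, and the part of length in the region shares was not tested. CSE1L and NDC1 carried much of the coding share, and without them it was 39.3% with DMSO and 38.2% with AVJ16. Among peaks with a level of at least 4, 33.3% were in coding sequence and 66.7% in 3′UTRs with DMSO, and 64.0% and 36.0% with AVJ16. Such peaks were few. With DMSO, 27 of them overlapped a peak of the other list and 6 did not, and with AVJ16 the counts were 18 and 7. Most of the AVJ16 coding ones lay in NDC1 and CSE1L, and the shares over all peaks at this level are not given. Peaks of 1 mRNA are not independent, so these intervals are too narrow. Of the peaks called coding, 4 with DMSO and 5 with AVJ16 had their middle in the 3′UTR of the canonical transcript, in IPO5, IPO13, KPNA3, NUP188, NUP210 or NUP214.

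**Figure D2:**
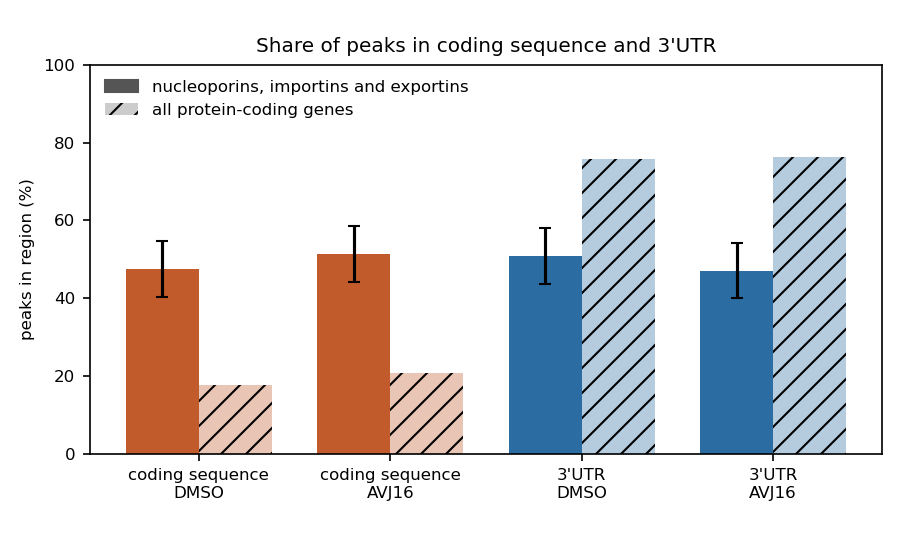
Percent of peaks in coding sequence (orange) and 3′UTR (blue) for each treatment, solid bars for the members with 95% Wilson intervals, hatched bars for all protein-coding genes. With every listed peak counted, 47.5% and 51.4% of member peaks lay in coding sequence, against 17.7% and 20.7% in coding sequence over all genes.

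Counts by role, with no test, were uneven. Importin alpha genes held 2 coding and 21 3′UTR peaks with DMSO, and 1 and 22 with AVJ16, and KPNA6 alone held 13 of the 3′UTR peaks in each list. The exportins held 27 coding and 9 3′UTR peaks with DMSO, and 30 and 5 with AVJ16. CSE1L held 15 and 20 of these coding peaks and XPO7 held 8 and 7, whereas the peaks of XPO1 and XPO4 lay mainly in 3′UTRs. The nuclear basket held 11 coding peaks in each list beside 4 and 5 in 3′UTRs, nearly all in NUP153. The 3 transmembrane nucleoporins held 25 coding and 19 3′UTR peaks with DMSO, and 31 and 21 with AVJ16. The 3′UTR peaks of the members lay at a median of 700.5 nt past the stop codon with DMSO and 729 nt with AVJ16, and the farthest, in KPNA6 and KPNA4, lay at 5493 nt and 5579 nt.

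Of the 177 DMSO peaks, 115 overlapped an AVJ16 peak by at least 1 nt (65.0%), beside 66.2% of all DMSO peaks. In the other direction, 132 of 183 AVJ16 peaks overlapped a DMSO peak (72.1%), beside 70.8%. Both shares are near the background. At the 115 shared peaks the median difference was −0.09, beside −0.06 over all 14759 shared peaks, and 25 were lower with AVJ16 by more than 0.5, the limit used by the study (21.7%, beside 20.1%), while 6 were higher by more than 0.5 (5.22%, beside 12.6%). A shared peak can pass the limit downward only from a level of at least 3.5, and upward only to such a level. Of the 63 member peaks at 3.5 or above with DMSO, 25 were lower (39.7%, 28.5 to 52.0%), beside 28.8% of all such peaks. Of the 51 whose partner was at 3.5 or above with AVJ16, 6 were higher (11.8%, 5.51 to 23.4%), beside 19.3%. Both intervals include the share over all peaks.

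Of the 25 lower peaks, 16 lay in 3′UTRs and 9 in coding sequence. Of 58 shared 3′UTR peaks, 16 were lower by more than 0.5 (27.6%, beside 21.2% of all shared 3′UTR peaks) and 1 was higher (1.72%, beside 13.0%), and 41 had a difference below 0 (70.7%, beside 55.5%). The 16 lay in 12 mRNAs, namely NUP54, NUP210, NDC1, NUP155, NUP214, POM121, KPNA1, KPNA2, KPNA6, IPO7, IPO8 and IPO11. Of 54 shared coding peaks, 9 were lower (16.7%, beside 15.6%) and 5 were higher (9.26%, beside 11.0%). Those 9 lay in CSE1L, XPO7, NDC1 and KPNA3, and 27 of the 54 had a difference below 0 (50%, beside 54.5%). Counted over the peaks that could pass the limit, the lower shares of both regions were close. They were 16 of 38 in 3′UTRs (42.1%, 27.9 to 57.8%, beside 29.2% of all such peaks) and 9 of 25 in coding sequence (36.0%, 20.2 to 55.5%, beside 26.4%). Higher were 1 of 26 in 3′UTRs (3.85%, 0.682 to 18.9%, beside 19.2%) and 5 of 25 in coding sequence (20%, 8.86 to 39.1%, beside 19.9%). The lower counts and the 3′UTR denominators include the 2 shared peaks of NUP54, whose fall was known when the members were chosen. Counts without NUP54 are not given. Only the interval of the higher 3′UTR share left out the share over all peaks, by a small margin, and no conclusion is drawn from it. Peaks of 1 mRNA are not independent, so these intervals are too narrow. The median difference was −0.16 in 3′UTRs and 0.01 in coding sequence, beside −0.07 and −0.04 over all genes. Starting the pairing from the AVJ16 peaks gave 3 higher peaks in 3′UTRs and 8 in coding sequence, and without CSE1L and NDC1 the coding counts were 4 lower and 2 higher.

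**Figure D3:**
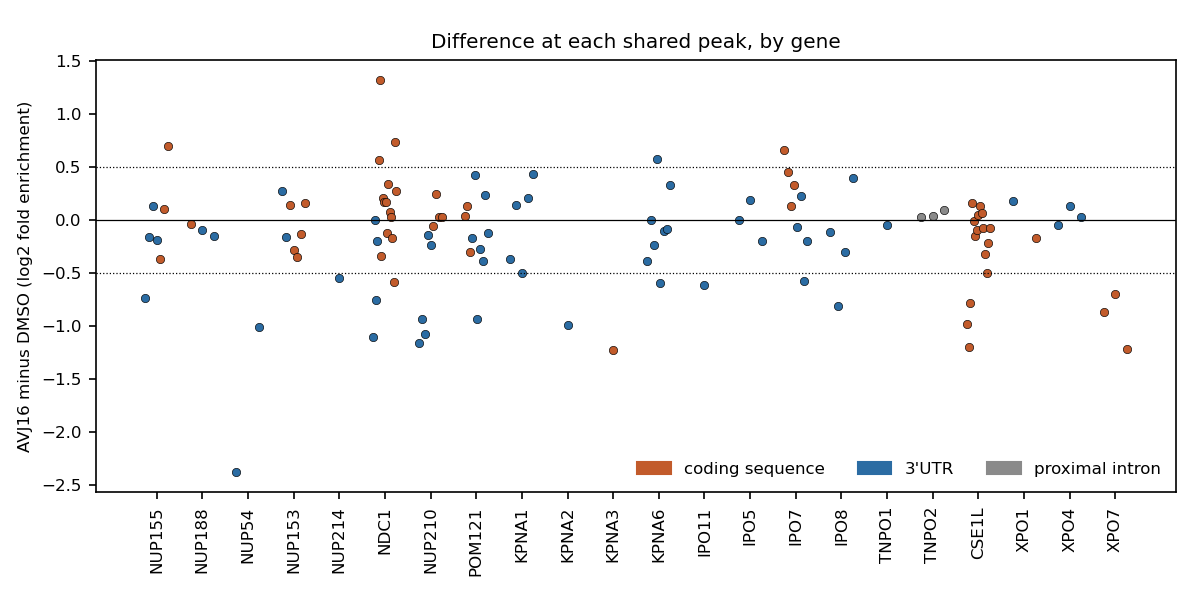
Difference in log2 fold enrichment (AVJ16 minus DMSO) at each of the 115 shared peaks, by gene, with dotted lines at the limit of 0.5 in either direction. Of 22 genes, 11 had peaks beyond the limit on the lower side alone, 4 on both sides and none on the higher side alone. The shares were 50%, 18.2% and 0%, beside 30%, 16.3% and 16.5% of the 3707 genes with a shared peak. Those 3707 genes held 14520 shared peaks, and the part of peaks per gene was not tested. The 11 include NUP54, the lowest point, at −2.38, whose fall was known beforehand. Pairing started from the DMSO peaks, and from the AVJ16 peaks IPO5 had a difference of 0.95.

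NUP54 forms the central channel with NUP62 and NUP58, and its 3′UTR held the largest negative difference of all 14759 shared peaks. The site lies in exon 12, the last, about 408 nt past the stop codon, at chr4:76114933-76115074 in the DMSO list. Its first peak by coordinate had a level of 6.53 (−log10 p 21.9) with DMSO and its partner a level of 4.14 (−log10 p 11.5) with AVJ16, a difference of −2.38. The adjoining peak had 4.64 with DMSO and 3.63 with AVJ16, a difference of −1.01. Between those 2 partners the AVJ16 list held a further peak of 3.76, so that all 3 AVJ16 peaks were below both DMSO peaks. This difference was known when the gene was chosen, and it is given as a description. The best levels of the joined site gave the same difference of −2.38, and so did a required overlap of 50% of both peaks. The stretch printed from the site comes from its most enriched peak.

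The other channel genes had few peaks. NUP58 had 3 peaks in each list and none overlapped. With DMSO its coding peak had a level of 3.09 and its 3′UTR peaks 4.20 each, and with AVJ16 the levels were 3.06 in coding sequence and 3.33 and 3.35 in the 3′UTR. NUP98, whose glycine-leucine-phenylalanine-glycine repeats also line the channel, had 1 peak, in the 3′UTR with AVJ16, at 3.28.

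Among transmembrane nucleoporins, NDC1 showed opposite signs along 1 mRNA. NDC1 anchors the pore in the nuclear envelope and held 21 DMSO and 27 AVJ16 peaks. In its coding sequence there were 14 peaks with DMSO and 22 with AVJ16, and the share of the coding sequence covered was 20.2% and 37.5%. All 14 DMSO coding peaks were shared, with a median difference of 0.17, 10 above 0 and 4 below, and those in exon 6 have the same AVJ16 partner. The largest positive difference of any member was in exon 17, where the level was 3.02 with DMSO and 4.34 with AVJ16, a difference of 1.32, and 140 of all 14759 shared peaks had a higher one. In exon 4 a peak had 3.80 and 4.53, a difference of 0.73, and in exon 18 a peak had 3.14 and 3.71, a difference of 0.56. One coding peak went beyond the limit the other way, in exon 5, with 3.84 and 3.25, a difference of −0.59. Exon 8 held 3 peaks in the AVJ16 list alone, at 4.89, 4.58 and 3.95, and the first is the most enriched peak of the gene in either list. The 3′UTR held 7 peaks with DMSO and 5 with AVJ16. Of the 4 shared ones, 2 were lower, with 4.41 against 3.30 (−1.11) and 4.34 against 3.59 (−0.75), and the others differed by −0.20 and 0.00. Both printed stretches of NDC1 hold CAU.

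NUP210, a membrane glycoprotein of the pore, held 13 peaks in each list, and its lower values lay together in the 3′UTR. Neighbouring 3′UTR peaks at 386, 330 and 258 nt past the stop codon had levels of 4.42, 3.96 and 4.08 with DMSO and 3.25, 3.02 and 3.01 with AVJ16, differences of −1.17, −0.93 and −1.08. Closer to the stop codon the differences were small, with −0.15 and −0.24 in the 3′UTR, and the 4 shared peaks called coding ranged from −0.05 to 0.24. Farther out, at 729 nt, the AVJ16 list held a peak of 5.09 with no DMSO partner, the highest AVJ16 level of any member. It is the NUP210 stretch printed above. POM121, the other transmembrane member, had 10 DMSO peaks, all shared. Its lowest difference was −0.94 in the 3′UTR, from 4.22 to 3.28, and the highest 0.43, from 3.26 to 3.68, also in the 3′UTR. POM121 has a near-identical copy, POM121C, and reads of the copies may not be separable, so the values of both are uncertain.

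**Figure D4:**
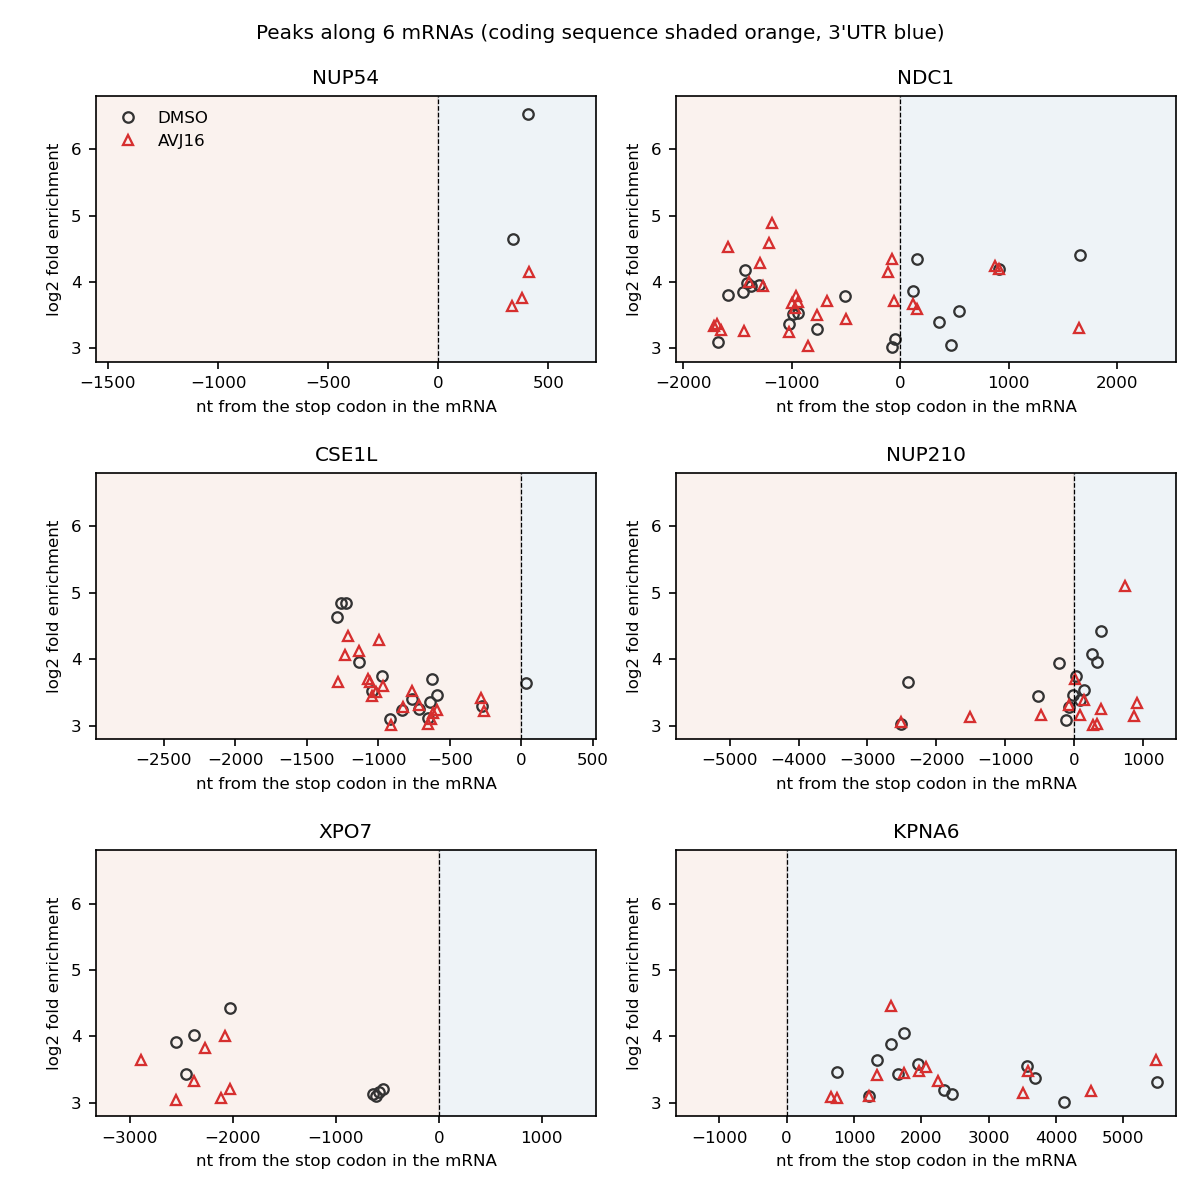
Level (log2 fold enrichment) of each peak against its distance from the stop codon in the canonical mRNA, for 6 members, with DMSO as black circles and AVJ16 as red triangles. NUP54 shows 2 DMSO peaks above all 3 AVJ16 peaks, NDC1 shows AVJ16 peaks of up to 4.89 in coding sequence, and the CSE1L peaks lie within 1287 nt before the stop codon apart from 1 DMSO peak just past it.

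The scaffold was bound mainly through NUP155, an inner ring component, with 17 DMSO and 13 AVJ16 peaks and 10.3% and 6.02% of its mRNA covered. Only 7 of its 17 DMSO peaks were shared. A 3′UTR peak 3559 nt past the stop codon had 4.54 with DMSO and 3.80 with AVJ16, a difference of −0.74. A coding peak in exon 6 had 3.49 and 4.18, a difference of 0.69, so this mRNA too had both signs. NUP188 had 3 shared peaks at its stop codon and in its 3′UTR, with differences between −0.16 and −0.04. NUP205, another inner ring component, had 1 coding peak with DMSO, at 3.41, and none with AVJ16. In the Y complex, NUP160 and NUP133 had peaks, with DMSO alone, and the other 4 members had none. NUP160 held 3 in its 3′UTR, at 4.48, 3.15 and 3.12, and NUP133 held 1, at 3.23. NUP160 thus had the highest DMSO level of a member peak without a partner.

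At the nuclear basket, NUP153 held 14 DMSO and 15 AVJ16 peaks, most of them coding. Its 7 shared peaks stayed within the limit, from −0.35 to 0.28, and 7 DMSO peaks had no partner. The highest levels were 4.34 with DMSO and 4.47 with AVJ16, both in exon 21. NUP50, which works with NUP153 and importins at the basket, had 1 3′UTR peak in each list, 3.64 with DMSO and 3.83 with AVJ16, at different places. At the cytoplasmic side, NUP214 had a shared 3′UTR peak of 4.48 with DMSO and 3.93 with AVJ16, a difference of −0.55, a further coding peak with DMSO at 3.14 and a peak with AVJ16 at 3.00 that touches coding sequence of another transcript and has its middle 94 nt past the canonical stop codon. RANBP2, the main component of the cytoplasmic filaments, had 1 coding peak with AVJ16, at 3.29. RANBP2 has close relatives in the RGPD genes, and its value is uncertain for the same reason as that of POM121.

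Importin alpha mRNAs were bound in their 3′UTRs. KPNA6 held 13 peaks in each list, all in the 3′UTR, and 8 of the DMSO peaks were shared. The differences ranged from −0.60, at a peak of 4.05 with DMSO and 3.45 with AVJ16, to 0.58, at a peak of 3.88 and 4.46, the only shared 3′UTR peak of a member that was higher by more than 0.5 when pairing starts from the DMSO peaks. Pairing from the AVJ16 peaks adds 1 in IPO5 and 1 in IPO8. Another gene, not classed as protein-coding, is annotated on the same strand across all KPNA6 peaks, so their reads cannot be assigned to KPNA6 alone. KPNA3 held the second highest level of any member, 5.14 (−log10 p 61.4) with DMSO and 3.91 (−log10 p 36.2) with AVJ16, a difference of −1.23. That peak touches coding sequence of another transcript of KPNA3 and lies 272 nt past the stop codon of the canonical one. KPNA2 had a 3′UTR peak of 4.72 with DMSO and 3.73 with AVJ16, a difference of −0.99, and a coding peak with DMSO alone, at 3.13. KPNA1 had 6 DMSO and 4 AVJ16 peaks, all in the 3′UTR, with differences from −0.50, just past the limit, to 0.44. KPNA4 had 1 3′UTR peak, with AVJ16, at 3.88.

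In the importin beta family, IPO7, which imports ribosomal proteins and other basic cargo, held 9 peaks in each list. Its 4 coding DMSO peaks, of which those in exon 20 have the same AVJ16 partner, were all shared and all higher with AVJ16, by 0.13 to 0.66. The largest was in exon 5, with 3.11 against 3.78. Beside it the AVJ16 list held a further peak of 3.64, and in exon 21 one of 3.29. The DMSO levels of the 4 coding peaks were 3.02 to 3.22, close to 3, the lowest level listed. A listed partner could therefore be only slightly lower, and their common sign was nearly fixed in advance. In the 3′UTR, 1 of 4 shared peaks was lower by more than 0.5, with 4.29 against 3.71, a difference of −0.58. The others there differed by −0.20, −0.07 and 0.22. IPO8, a close relative of IPO7, had a 3′UTR peak of 4.67 with DMSO and 3.85 with AVJ16 (−0.82), and at another 3′UTR peak 3.32 against 3.72 (0.40). IPO11 had 1 peak in each list, in the 3′UTR, with 4.15 against 3.54 (−0.61).

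IPO5, an importer of ribosomal proteins and histones, had 4 DMSO and 6 AVJ16 peaks, and its value turned on the pairing. From the DMSO side the 3 shared peaks differed by −0.20 to 0.18. From the AVJ16 side, the peak of 4.76 whose stretch is printed above overlapped a DMSO peak of 3.81, a difference of 0.95. TNPO1, which imports hnRNP proteins, had 3 DMSO and 5 AVJ16 peaks, all in the 3′UTR and at levels from 3.01 to 3.46, and shared 1, with a difference of −0.05. IPO9 had a 3′UTR peak with DMSO alone, at 3.05. IPO13, a carrier that works in both directions, had a peak across its stop codon with AVJ16 alone, at 3.14.

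TNPO2, a close relative of TNPO1, was the only member with peaks in an intron, and its levels were nearly the same in both lists. Its 3 DMSO and 3 AVJ16 peaks adjoin each other at chr19:12703597-12703671, in a proximal intron, and no other gene annotated on the same strand overlaps them. The levels were 3.34, 3.33 and 3.23 with DMSO and 3.36, 3.32 and 3.26 with AVJ16, and the differences lay between 0.02 and 0.10. Their −log10 p reached 400, the upper limit of the files, at 2 DMSO peaks and 1 AVJ16 peak. Fold and p thus ranked this site differently, with p at the limit at a level close to the median of the members.

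The exportin CSE1L, which returns importin alpha to the cytoplasm, held 16 DMSO and 20 AVJ16 peaks. All 15 coding DMSO peaks were shared, between exon 16 and exon 24, and the covered share of its coding sequence was 23.4% and 22.0%. The large differences lay in exon 16, where peaks of 4.64, 4.85 and 4.84 with DMSO had partners of 3.65, 3.65 and 4.06 with AVJ16, differences of −0.99, −1.20 and −0.78, and the first 2 share 1 partner. A further AVJ16 peak in that exon had a level of 4.35. In exon 21 a peak of 3.70 had a partner of 3.19, a difference of −0.50, just past the limit. The other 11 coding peaks differed by −0.32 to 0.16. The stretch printed for CSE1L is from exon 16.

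XPO7 had all its peaks in coding sequence, 8 with DMSO and 7 with AVJ16. The 3 shared ones were all lower with AVJ16, with 3.91 against 3.04 in exon 7 (−0.87), 4.02 against 3.32 in exon 9 (−0.70) and 4.42 against 3.21 in exon 11 (−1.22). Next to the last, the AVJ16 list held a touching peak of 4.01 that overlaps no DMSO peak. Exons 23 and 24 had 4 peaks with DMSO alone, at 3.10 to 3.20, and exons 4 and 10 had 1 each with AVJ16 alone, at 3.65 and 3.82. XPO6, which exports actin with profilin, had the most peaks of the members bound with DMSO alone. It had 4, at 3.54 in the 3′UTR and 3.04, 3.11 and 3.41 next to each other in exon 16, and none with AVJ16. XPO1, the main exporter of proteins with a leucine-rich export signal, had 4 DMSO and 3 AVJ16 peaks at levels from 3.06 to 3.51, and 2 shared peaks with differences of −0.17 and 0.18. XPO4 had 4 and 5 peaks, and its 3 shared 3′UTR peaks differed by −0.05 to 0.13.

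No AVJ16 partner was listed for 62 member peaks of the DMSO list. Their median level was 3.26, beside 3.53 for the 115 shared ones, and 6 reached 4. Among AVJ16 peaks, 51 were without a DMSO partner, with a median of 3.33 beside 3.44, and 7 reached 4. Over all genes the medians were 3.37 and 3.35 without a partner, beside 3.80 and 3.73 for shared peaks. With DMSO, 9.68% of the unpartnered member peaks reached 4, beside 23.5% of the shared ones. With AVJ16 those shares were 13.7% and 13.6%, whereas over all AVJ16 peaks they were 11.4% and 33.9%, and the highest AVJ16 peak of a member, in NUP210, was unpartnered. Among the members bound in 1 list alone, IPO9, NUP133, NUP205, XPO6, IPO13, KPNA4, NUP98 and RANBP2 had no level above 3.88, with NUP160, at 4.48, the exception.

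A list of 33 other nuclear transport genes is given for comparison. It holds the RAN cycle, further nucleoporins and mRNA export factors, and also the exportin XPOT and the genes SNUPN and HIKESHI. With DMSO 12 of them had a peak (36.4%, 95% Wilson interval 22.2 to 53.4%), and with AVJ16 9 (27.3%, 15.1 to 44.2%), with 28 and 29 peaks and 7 genes in both lists. Of their 12 shared peaks none was lower by more than 0.5 and 2 were higher, both in POM121C, with a median difference of −0.04. RAN, the GTPase itself, had a 3′UTR site with 4.20 as its best level with DMSO and 3.77 with AVJ16, and its shared peak differed by −0.43. SEH1L, a Y complex component, had 3 peaks in each list, with 1 shared and a difference of 0.38. Whether the members and these genes differ was not tested.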

How the data were processed

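Binding of IGF2BP1 was measured by eCLIP in H1299 cells, with 2 IP and 2 SMInput libraries per treatment. The authors trimmed reads with cutadapt, discarded reads of repeats, aligned the rest with STAR and used CLIPper on deduplicated reads. The deposited lists give for each peak a −log10 p-value, up to 400, and a log2 fold enrichment of IP over SMInput, computed by the authors with both replicates combined, each list separately. The labels name hg38, and all 22311 and 22123 peaks lay inside its chromosomes.

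Peaks were assigned on their strand to GENCODE release 44 genes. CDS of any coding transcript of the gene took precedence over 3′UTR, then 5′UTR and introns, called proximal up to 500 nt from an exon. Distances and exon numbers refer to the canonical transcript and the middle of the peak. The partner of a DMSO peak was the AVJ16 peak with the largest overlap, of at least 1 nt, and 19 shared member peaks had a partner that serves another DMSO peak too. No test was possible, since the lists hold no replicate values.

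Members, role groups and the other transport genes were chosen with earlier results of these data known. Named are members with at least 3 peaks, with a shared peak beyond 0.5, or bound in 1 list, the extremes, and every member without a peak. NUP50, and RAN, SEH1L, POM121C, XPOT, SNUPN and HIKESHI of the other list, were named after their values were seen. 1 exportin gene is not reported here.

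The alternatives were higher thresholds, exonic peaks, peaks in no other gene on the strand, another region order and joined peaks. Other overlaps, pairings and limits, centring, other motif windows and the transcript with the longest 3′UTR were used too. Added after seeing the data were leaving out POM121, leaving out CSE1L and NDC1, the counts by region under other pairings, and the shares of peaks of at least 3.5. Python 3.11.15, numpy 2.4.6, scipy 1.17.1, pandas 2.3.3, pysam 0.24.0 and matplotlib 3.10.9 were used, and assignment and pairing were tested on simulated data.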

Additional observations from a re-analysis of the deposited data

How the results depend on the processing

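Of 108 alternatives to 25 results, 82 left the value in place, 25 moved it and 1 reversed its sign. No paired analysis was possible because the lists combine the replicates, and for the same reason no replicate could be left out. A level of at least 4 moved most values: 19 members had a peak with DMSO and 12 with AVJ16, 11 in both, 8 with DMSO alone and 1 with AVJ16 alone. The 3′UTR share was then 66.7% with DMSO and 36.0% with AVJ16, the coding share 33.3% and 64.0%, and 24.2% of DMSO peaks were shared, with 2 lower, 0 higher and a median difference of 0.013, the reversed sign. Both partners had to reach 4, so a fall from above 4 to below it was no longer counted. Few pairs remained, and the reversed sign is not read as a result. No matching share over all genes or peaks is given at that level, so these counts have no background. Leaving out CSE1L and NDC1 gave 3′UTR shares of 58.6% and 59.6%, coding shares of 39.3% and 38.2%, and 3 higher peaks. An overlap of 50% of both peaks left 54.2% shared. A limit of 1 left 8 lower and 1 higher peaks, and pairing from the AVJ16 peaks gave 11 higher ones. In the longer window, CAU was present in 85.9% with DMSO and 84.2% with AVJ16, and GGAC in 19.2% and 16.4%. Beyond the longer window's own construction and the filter on both partners, the causes were not tested. Depth is unknown, so the lists cannot show whether a site absent from 1 of them lay just below the thresholds.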
